A study of Mus musculus with 2 samples.

Results

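The 45 genes described here encode the proteins that mark, load and fire origins of DNA replication and that copy DNA at the fork. They were taken as a list of symbols, matched to the deposited Ensembl gene rows through GENCODE release 21, and all 45 were found among 43346 such rows. No measured value entered the rule that matched them, but the genes were chosen with earlier results of these data known. RNA came from mouse erythroid progenitor cells, labelled CFU-E, of adult male C57BL/6J mice aged 5 to 6 weeks, with no treatment or engineered allele named. The title of the isolation protocol names bone marrow. CFU-E stands for colony-forming unit erythroid, a precursor already committed to the red cell lineage that divides rapidly before it matures. Total RNA depleted of ribosomal RNA was made into ScriptSeq libraries from 100 ng in 2 biological replicates, which form 1 group. Both carry the same donor label but different biosample labels, and nothing states whether animals were pooled or whether the cells came from separate mice, so the spread between the libraries may be partly technical.

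Replication begins when the origin recognition complex (ORC), Cdc6 and Cdt1 load the ring-shaped MCM2-7 helicase onto DNA in G1, a step called licensing that geminin (Gmnn) blocks by binding Cdt1. In S phase the kinase Cdc7-Dbf4 and the cofactors Cdc45, GINS and Mcm10 turn the ring into an active helicase. Polymerase alpha-primase then lays down primers, polymerases epsilon and delta extend them with the clamp PCNA and its loader RFC, RPA covers single-stranded DNA, and Fen1 and Lig1 join the lagging-strand pieces. Erythroid progenitors at this stage are known for rapid division, with S phase linked to the start of terminal differentiation.

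Many replication genes are known targets of E2F transcription factors, so promoter windows of the genes were read for E2F sites. The windows run from 250 bases before to 50 bases after the transcription start (RefSeq sequences, build GRCm38.p6), and 37 of the 45 genes had a window, 47 windows in all. Gmnn, Mcm4, Gins1, Gins2, Gins4, Prim2, Pole and Rfc2 had none in the table. An E2F match was TTTCCCGC, TTTCGCGC, TTTGCCGC or TTTGGCGC on either strand. The 4 windows of MCM2-7 genes that hold a match are shown, since these genes encode subunits of a single ring and each window holds more than 1 match. They read 5′ to 3′ on the gene's strand, with the matches in capitals: Mcm3 at chr1:20820263-20820562 (minus strand), Mcm5 at chr8:75109259-75109558 (plus), Mcm6 at chr1:128359656-128359955 (minus) and Mcm7 at chr5:138171834-138172133 (minus).
Mcm3: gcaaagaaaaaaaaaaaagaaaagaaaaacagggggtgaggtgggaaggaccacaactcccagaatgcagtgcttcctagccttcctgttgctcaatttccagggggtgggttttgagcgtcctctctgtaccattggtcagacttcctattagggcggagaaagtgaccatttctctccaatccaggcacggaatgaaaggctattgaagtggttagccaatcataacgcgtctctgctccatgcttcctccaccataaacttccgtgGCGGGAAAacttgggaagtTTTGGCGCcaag
Mcm5: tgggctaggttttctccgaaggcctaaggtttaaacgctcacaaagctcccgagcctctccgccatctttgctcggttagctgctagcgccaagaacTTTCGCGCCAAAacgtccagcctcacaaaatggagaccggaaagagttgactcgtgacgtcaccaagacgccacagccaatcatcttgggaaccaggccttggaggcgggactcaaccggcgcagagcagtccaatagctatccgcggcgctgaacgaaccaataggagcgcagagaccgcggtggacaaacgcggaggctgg
Mcm6: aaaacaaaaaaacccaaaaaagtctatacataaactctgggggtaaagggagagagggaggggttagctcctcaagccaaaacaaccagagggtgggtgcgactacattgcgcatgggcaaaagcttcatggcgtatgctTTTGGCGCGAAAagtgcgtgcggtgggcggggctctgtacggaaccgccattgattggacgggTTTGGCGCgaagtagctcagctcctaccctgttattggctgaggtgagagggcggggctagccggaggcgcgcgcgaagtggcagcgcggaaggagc
Mcm7: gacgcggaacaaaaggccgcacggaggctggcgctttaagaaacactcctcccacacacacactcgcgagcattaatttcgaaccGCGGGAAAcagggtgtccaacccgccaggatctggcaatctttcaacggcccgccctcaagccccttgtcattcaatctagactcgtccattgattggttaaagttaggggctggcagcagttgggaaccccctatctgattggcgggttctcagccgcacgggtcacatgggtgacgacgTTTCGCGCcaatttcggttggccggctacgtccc

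In these windows the start is base 251. The Mcm3 window holds 2 matches, both after the start, at bases 270 (TTTCCCGC, minus strand of the window) and 289 (TTTGGCGC). In Mcm5 the 2 matches, TTTCGCGC at base 98 and TTTGGCGC on the other strand at base 102, overlap, so they form 1 run of capitals. Mcm6 has the same kind of overlapping pair at bases 141 and 145 and a separate TTTGGCGC at base 204. Mcm7 has TTTCCCGC on the minus strand at base 86 and TTTCGCGC at base 267, and its other window, at chr5:138171217-138171516, has no match. The Mcm2 window has none.

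Across the matched genes, 16 of 37 (43.24%) had an E2F match in at least 1 window, as had 17 of 47 windows (36.17%). Of all 27025 genes with a window 2.60% had one, as had 2.26% of all 32851 windows and 6.24% of the 4102 nuclear protein-coding genes detected in both libraries. By role, matches lay in 4 of 5 MCM2-7 genes, in both Cdc6 and Cdt1, in 2 of 6 ORC genes, in 2 of 3 genes of polymerase delta and in 2 of 3 of polymerase epsilon. Matches also lay in 1 of 3 alpha-primase genes, in 1 of 4 RFC genes, in Lig1 but not Fen1, and in Gins3, the 1 GINS gene with a window. No match lay in the windows of Pcna, of the 3 RPA genes, of Cdc7 and Dbf4 or of Mcm10 and Cdc45. This says only that these letters are not in these windows. TTTGAA, the letters of the cell cycle homology region, lay on either strand in 7 of 37 genes (18.92%), beside 20.23% of all genes with a window and 15.72% of the detected nuclear protein-coding genes. The median GC content was 62.3% in the windows of the replication genes, 61.3% in those of detected nuclear protein-coding genes and 52.7% in all windows. The 16 genes with an E2F match had a median level of 9.40 and 6.55 TPM in replicates 1 and 2, and the 21 without had 7.18 and 5.42. The ranges of these groups overlapped almost fully, from 2.18 to 40.53 and from 1.92 to 75.22 TPM in replicate 1.

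Levels are TPM, a transcript abundance that divides reads by effective length and scales each library to the same sum, so that genes can be compared within a library. Library totals were 62576357 and 36889517 expected counts in replicates 1 and 2, and the 45 genes held 0.277% and 0.316% of them, from 228 (Pold2) to 15273 (Pola1) counts in replicate 1 and from 231 (Pold2) to 10453 (Pcna) in replicate 2. At the lowest of these, the exact 95% Poisson interval runs from 199 to 260, and such intervals cover counting error only. Over the 3384 nuclear protein-coding genes that averaged 1000 counts or more, the median log2 TPM ratio of replicate 1 to replicate 2 was 0.64. This cannot hold for all rows, since both libraries have the same TPM sum. Nuclear protein-coding genes held a minor part of TPM, and a smaller one in replicate 2. The 45 genes summed to 557 and 391 TPM but held 0.449% and 0.523% of nuclear protein-coding TPM, so the direction reversed. A gene with equal TPM in both libraries therefore stood higher relative to other nuclear protein-coding genes in replicate 2. A fixed TPM minimum was likewise not equally strict in both libraries. The erythroid marker genes Gata1, Klf1, Epor, Tfrc and Alas2 reached 10 TPM in each library, with a summed level of 637 and 426 TPM over these 5. Kit, a marker of CFU-E and earlier progenitors, was at 0.42 and 0.51 TPM. All 5 granulocyte markers also passed 10 TPM (summed 1139 and 566 TPM), all 4 monocyte and macrophage markers passed 1 TPM (summed 126 and 76.4), as did 2 of 3 B cell markers (summed 33.7 and 17.3) and 2 of 3 megakaryocyte markers (summed 9.83 and 3.41). No marker was at 0. The part of other cell types in the levels below was not tested, and in bulk RNA fewer cells of a type and less RNA per cell cannot be told apart. The proliferation markers Mki67 (703 and 361 TPM) and Top2a (243 and 181 TPM) were abundant in both libraries.

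Nearly the whole replication set was detected: 44 of 45 genes reached 1 TPM in both libraries, beside 23.9% of the 21461 nuclear protein-coding genes. The exception was Gins2, at 2.86 and 0.93 TPM. A level of 10 TPM in both libraries was reached by 11 of 45, beside 4.79% of nuclear protein-coding genes. These were Gmnn, Mcm2, Mcm3, Mcm6, Mcm7, Dbf4, Pola1, Prim1, Pcna, Fen1 and Lig1. The median of the 45 genes was 7.55 and 5.50 TPM (6.53 ± 1.45, SD, n = 2), and the median over nuclear protein-coding genes that reached 1 TPM in both was 5.44 and 3.43. Ranked among all nuclear protein-coding genes, the median replication gene stood at percentile 90.6 and 91.7, and the lowest at 76.8 and 74.2. Counting only transcripts annotated as protein-coding (here called coding TPM), 42 of 45 reached 1 in both libraries, beside 20.8%, and the exceptions were Orc3, Gins2 and Rfc3. Together the 45 genes held 0.449% and 0.523% of nuclear protein-coding TPM.

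**Figure D1:**
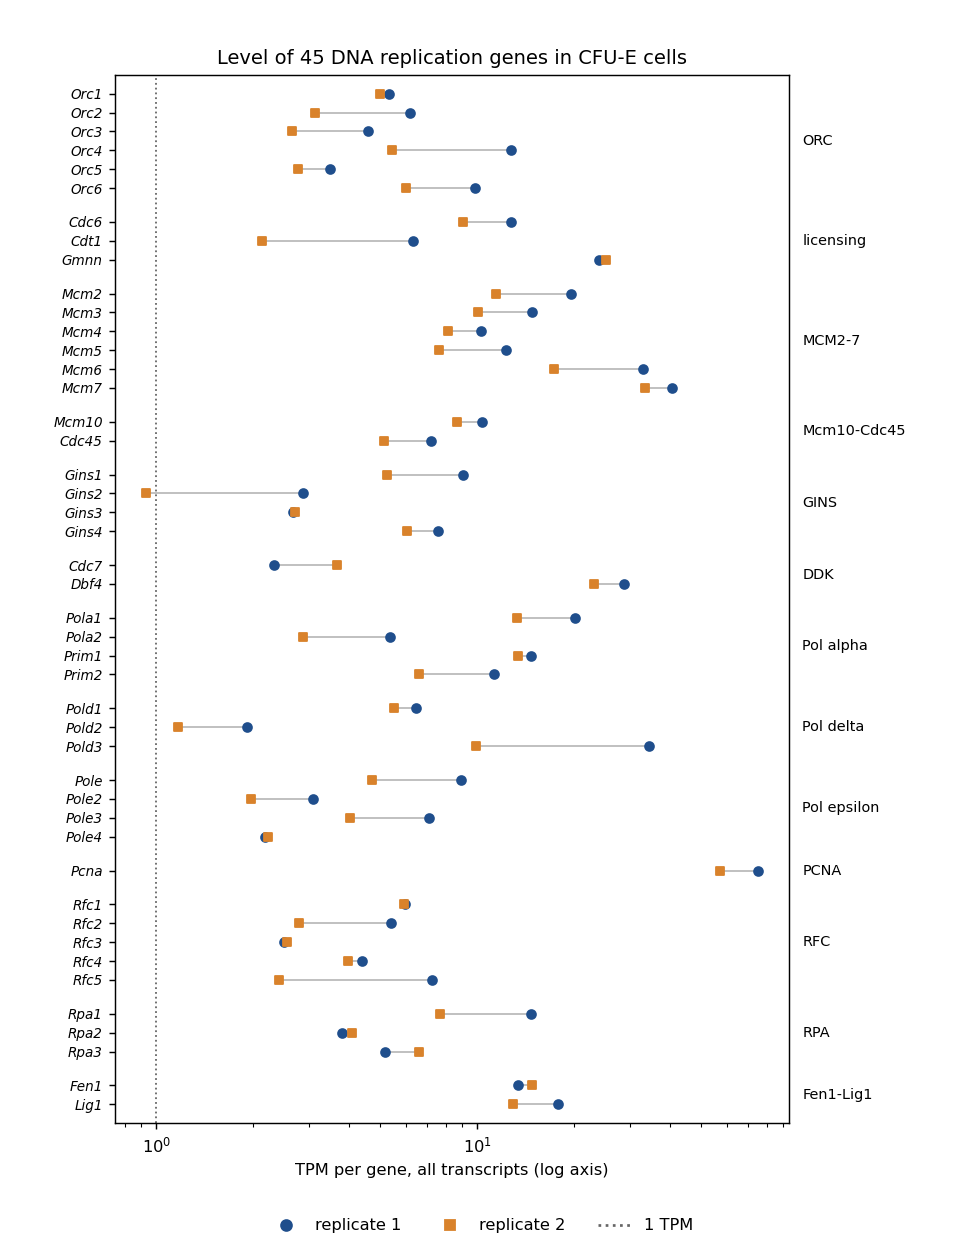
TPM of each of the 45 genes, all transcripts summed, on a log axis, grouped by complex. Circles are replicate 1, squares are replicate 2, a line joins each pair and the dotted line marks 1 TPM. Pcna stands highest at 75.22 and 56.98 TPM, and Gins2 in replicate 2 (0.93) is the only value left of the dotted line.

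The order of the genes was much the same in both libraries, with Pearson r of 0.91 on log2 TPM and Spearman rho of 0.90 over the 45 genes. This is a description across genes, which are not independent replicates and share gene length and annotation in both libraries.

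The ORC, whose 6 subunits bind origins and hold Cdc6, was among the lower complexes, with a median of 5.74 and 4.06 TPM. Orc1, an ATPase subunit, was at 5.30 and 4.99 TPM. Orc2 was at 6.18 and 3.12, and Orc3, which pairs with it in the complex, at 4.57 and 2.66. Orc4, another ATPase subunit, had 12.72 and 5.42 TPM, and Orc5 3.49 and 2.77. Orc6, the smallest subunit, was at 9.86 and 5.99. Orc4 led in replicate 1 and Orc6 in replicate 2, while Orc3 and Orc5 were the lowest pair in both. By TPM most of the Orc4 level lay outside protein-coding transcripts, though these held 50.4% and 68.2% of the counts of Orc4. Its coding TPM was 1.82 and 2.61, which made Orc4 the lowest ORC gene in replicate 1. Orc3 likewise stood at 2.93 and 0.66 by coding TPM, and Orc6 was then the highest ORC gene in both libraries (9.86 and 5.99). Exons of Orc2 share 29.8% of their bases with Nif3l1 on the opposite strand (201 and 98 counts, against 3374 and 1576 for Orc2).

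Among the licensing factors, the inhibitor stood above the loaders. Gmnn, which encodes geminin (chr13:24751845-24761923), was at 24.01 and 25.25 TPM (24.6 ± 0.88, SD, n = 2). Cdc6, the ATPase that recruits the helicase with Cdt1, was at 12.75 and 9.02 TPM. Cdt1 (chr8:122568015-122573554) was at 6.30 and 2.14 TPM, the lowest of these 3 genes in both libraries. Gmnn thus exceeded Cdt1 3.81-fold in replicate 1 and 11.8-fold in replicate 2, a log2 ratio of 2.75 ± 1.15 (SD, n = 2). The direction was the same in both libraries, while the sizes lay far apart: Cdt1 had 2024 and 648 counts, and Gmnn 2905 and 2893. Cdc6 exceeded Cdt1 2.02- and 4.22-fold by TPM. Cdc6 had more than 1 abundant form: Cdc6-202 held 47.6% and 50.3% of its TPM and Cdc6-201 42.2% and 43.4%, both protein-coding.

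The helicase was among the most abundant complexes, with an MCM2-7 median of 17.2 and 10.8 TPM, which is 3.0- and 2.66-fold the ORC median (log2 ratio 1.5 ± 0.12, SD, n = 2). Mcm7 (chr5:138164583-138172422), whose window shown above holds E2F letters on both sides of the start, was the highest at 40.53 and 33.29 TPM. Mcm6 followed at 32.81 and 17.40 TPM, and Mcm2 at 19.57 and 11.47. Mcm3 was at 14.88 and 10.09. These 4 genes kept their order in both libraries, and the deposited credibility intervals of neighbours in this order did not overlap in either library. Mcm5, at 12.32 and 7.59 TPM, and Mcm4, at 10.27 and 8.13, changed places between the libraries. The ring holds 1 copy of each subunit, and the highest gene exceeded the lowest 3.95- and 4.39-fold by TPM. By coding TPM this spread was 2.77- and 2.94-fold, with Mcm7 at 27.11 and 22.35 and Mcm6 at 28.47 and 15.66, so that Mcm6 and not Mcm7 led in replicate 1. Mcm7 had 10 transcripts, of which Mcm7-201 held 47.4% and 34.4% of TPM and the retained-intron transcript Mcm7-203 28.8% and 23.6%. Of the counts of Mcm7, Mcm7-203 held 7.04% and 7.32%. A retained-intron transcript is one that the annotation records with an intron left in and no assigned protein. The miRNA genes Mir25 and Mir93, which lie within Mcm7 and share 84 and 88 bases with its exons, had 0 counts in both libraries. The recorded library sizes start at 209 bases in replicate 1 and 186 in replicate 2. These counts therefore do not tell whether the miRNAs were present.

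Mcm10, Cdc45 and GINS, which join the loaded ring, were at lower levels than most genes of the ring. Mcm10 was at 10.36 and 8.67 TPM, of which 5.25 and 4.02 was coding TPM. Cdc45 was at 7.18 and 5.13 TPM. The 4 GINS genes, whose proteins form a complex with 1 copy of each, had a median of 5.21 and 3.97 TPM. Gins1 was at 9.02 and 5.24 TPM, Gins4 at 7.55 and 6.04, and Gins3 at 2.67 and 2.70. Gins2 (chr8:120578633-120589304) had the lowest level of the 45 genes in replicate 2 and rested on 373 and 524 counts. Its exons share 67.3% of their bases with Gse1 on the opposite strand, which had 12744 and 7542 counts. Whether reads were counted by strand is not known. The counts of Gins2 and Gse1 were whole numbers in each library. So were those of Fen1 and Gm10143 and of Orc2 and Nif3l1, which also overlap on opposite strands. Fractional counts were seen for Eif4a2, which overlaps Rfc4, for Rfc5 in replicate 1, and for Pcna and its pseudogene described below. Whether reads were divided between genes on opposite strands was not tested.

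The kinase that fires origins was unevenly represented. Dbf4, the regulatory subunit, was at 28.63 and 23.22 TPM, and the catalytic subunit Cdc7 (chr5:106964322-106984432) at 2.33 and 3.67. Dbf4 exceeded Cdc7 12.3- and 6.33-fold by gene TPM, a log2 ratio of 3.14 ± 0.68 (SD, n = 2), and 9.43- and 4.33-fold by coding TPM. Both genes had sizeable retained-intron forms: Dbf4-203 held 28.2% and 32.2% of Dbf4 TPM, and Cdc7-207 held 35.8% and 35.7% of Cdc7 TPM.

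Of the polymerases, alpha-primase, which makes the RNA-DNA primer, had the highest median, 13.0 and 9.99 TPM. Its catalytic subunit Pola1 (chrX:93304767-93632155) was at 20.25 and 13.36 TPM, and its accessory subunit Pola2 at 5.34 and 2.87. Pola1 exceeded Pola2 3.79- and 4.66-fold. The primase catalytic subunit Prim1 was at 14.70 and 13.38 TPM and the regulatory subunit Prim2 at 11.33 and 6.61, so Pola2 was the lowest of the 4 in both libraries. Polymerase epsilon, known for leading-strand synthesis, had a median of 5.08 and 3.13 TPM. Its catalytic subunit Pole was at 8.91 and 4.69 TPM, Pole2 at 3.08 and 1.98, and the histone-fold subunits Pole3 and Pole4 at 7.07 and 4.03 and at 2.18 and 2.23. Pola1 exceeded Pole 2.27- and 2.85-fold by gene TPM and 4.52- and 4.41-fold by coding TPM.

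Polymerase delta, known for lagging-strand synthesis, showed a wide gap between gene TPM and coding TPM. Pold3 (chr7:100082111-100121565), an accessory subunit, was at 34.34 and 9.94 TPM, the catalytic subunit Pold1 at 6.47 and 5.50, and the accessory subunit Pold2 at 1.92 and 1.17. By gene TPM, Pold3 exceeded Pold1 5.31- and 1.81-fold and Pold2 17.9- and 8.50-fold. By coding TPM the 3 genes were at 2.51 and 3.94 (Pold3), 1.29 and 2.27 (Pold1) and 1.93 and 1.01 (Pold2), and the highest exceeded the lowest 1.95- and 3.90-fold. The coding TPM of Pold1 is uncertain, since 21.9% and 21.8% of its TPM lay in transcripts that the later annotation no longer lists. The retained-intron transcript Pold3-202, 487 bases long, had 14.81 and 1.45 TPM from 641 and 66.9 counts. The protein-coding Pold3-201, 3069 bases long, had 2.51 and 3.94 TPM from 1170 and 1718 counts. The gene's effective length was 603 bases there and 1419 in replicate 2.

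**Figure D2:**
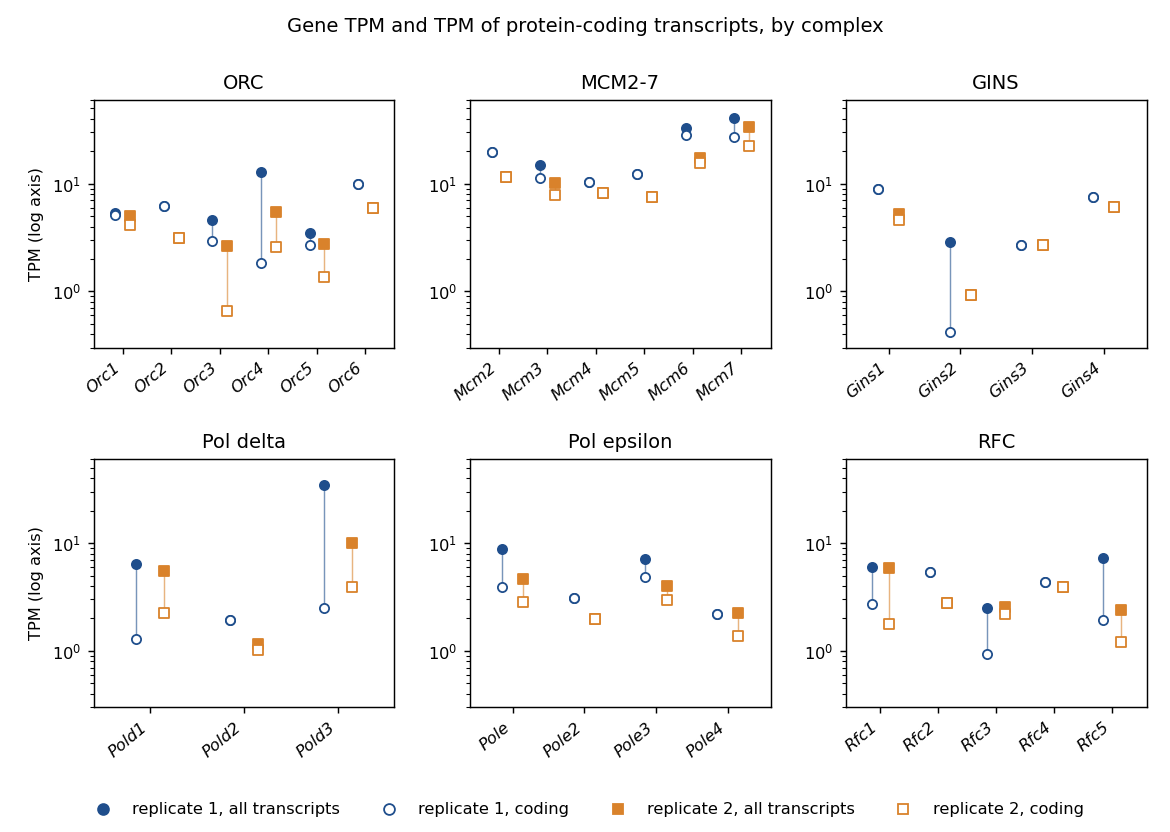
Gene TPM (filled) and TPM of protein-coding transcripts alone (open) for the genes of 6 complexes, on log axes, with circles for replicate 1 and squares for replicate 2. Where both values are equal the open symbol covers the filled one. The gap is wide for Pold3 and Orc4 in replicate 1 (34.34 against 2.51 and 12.72 against 1.82 TPM). It is absent by construction for Mcm2, Mcm4 and Mcm5, which have 1 listed transcript each, annotated as protein-coding.

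The sliding clamp was the most abundant of the 45 genes. Pcna (chr2:132249162-132253314) was at 75.22 and 56.98 TPM (66.1 ± 12.9, SD, n = 2), 1.86- and 1.71-fold above Mcm7, the next highest. Most of it, 66.89 and 46.68 TPM, was the protein-coding Pcna-201. A processed pseudogene, Pcna-ps2 (chr19:9283380-9284160), matches the Pcna coding stretch of 786 bases at 775 of 781 aligned bases (99.2%). It was assigned 365 and 207 expected counts, 2.43% and 1.98% of those of Pcna. The counts of both genes are fractional but add up to whole numbers, 15393 and 10660, as when reads that match both are divided between them, so the level of Pcna is uncertain. How many reads match both was not measured.

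The clamp loader ran far below the clamp, with an RFC median of 5.39 and 2.79 TPM. Rfc1, the large subunit, was at 5.96 and 5.93 TPM, and Pcna exceeded it 12.6- and 9.61-fold. Of the small subunits, Rfc2 was at 5.39 and 2.79 TPM and Rfc3 at 2.50 and 2.56. Rfc4 was at 4.38 and 3.95, and Rfc5 at 7.23 and 2.41. Rfc5 was the highest RFC gene in replicate 1 and the lowest in replicate 2, while Rfc1 lay above Rfc2, Rfc3 and Rfc4 in both. Rfc3 lay below Rfc2 and Rfc4 in both libraries, though in replicate 2 the credibility intervals of Rfc2 (2.55 to 3.01 TPM) and Rfc3 (2.45 to 3.12) overlapped. In the later annotation 54.1% and 69.9% of Rfc1 TPM lies in transcripts it no longer lists, so its coding TPM (2.74 and 1.79) is a minimum. Rfc4 and Rfc2 overlap Eif4a2 (12.7% of exon bases) and Lat2 (15.1%) on the opposite strand.

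RPA, the trimer that covers single-stranded DNA, had a median of 5.16 and 6.59 TPM. Its large subunit Rpa1 was at 14.73 and 7.68 TPM, Rpa2 at 3.79 and 4.07, and Rpa3 at 5.16 and 6.59. The order Rpa1, Rpa3, Rpa2 was the same in both libraries. Rpa1 exceeded Rpa2 3.89- and 1.89-fold by gene TPM and 2.93- and 2.87-fold by coding TPM, where the libraries lay closer. For lagging-strand joining, the flap endonuclease Fen1 was at 13.44 and 14.80 TPM and the ligase Lig1 at 17.84 and 12.92, so their order changed between the libraries. By coding TPM Lig1 was lower, at 6.71 and 5.09, and lay below Fen1 in both. Of the exon bases of Fen1, 78.8% lie under the antisense gene Gm10143, which had 205 and 169 counts against 4354 and 4432 for Fen1.

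Transcript use was read from the deposited transcript tables. Of the 45 genes 8 had 1 listed transcript: Cdt1, Mcm2, Mcm4, Mcm5, Gins3, Gins4, Pole2 and Rfc2. Each of these is protein-coding, so gene TPM and coding TPM are equal there by construction. In 14 of the 44 genes detected in both libraries, the most abundant transcript held under 60% of the gene's TPM in both, a share of 31.8%, beside 26.4% of the 5139 nuclear protein-coding genes detected in both. Among genes of more than 1 transcript this was 14 of 36, beside 34.3%, so it was near the background. A different transcript led in each library in 14 of 36 genes, beside 37.4%. Coding transcripts held under 50% of TPM in both libraries in 6 of 36, beside 16.6%. In these counts of genes the replication set was close to other detected genes. Weighted by level it was lower: coding transcripts held 73.4% and 77.0% of the summed TPM of the 45 genes, and 85.9% and 84.4% over detected nuclear protein-coding genes. Retained-intron transcripts held 19.1% and 17.5% of the summed TPM of the 45 genes, and the same share over other genes was not computed. More than 30% of TPM lay in them in both libraries in 7 of the 44 detected genes, beside 12.6% of detected nuclear protein-coding genes.

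**Figure D3:**
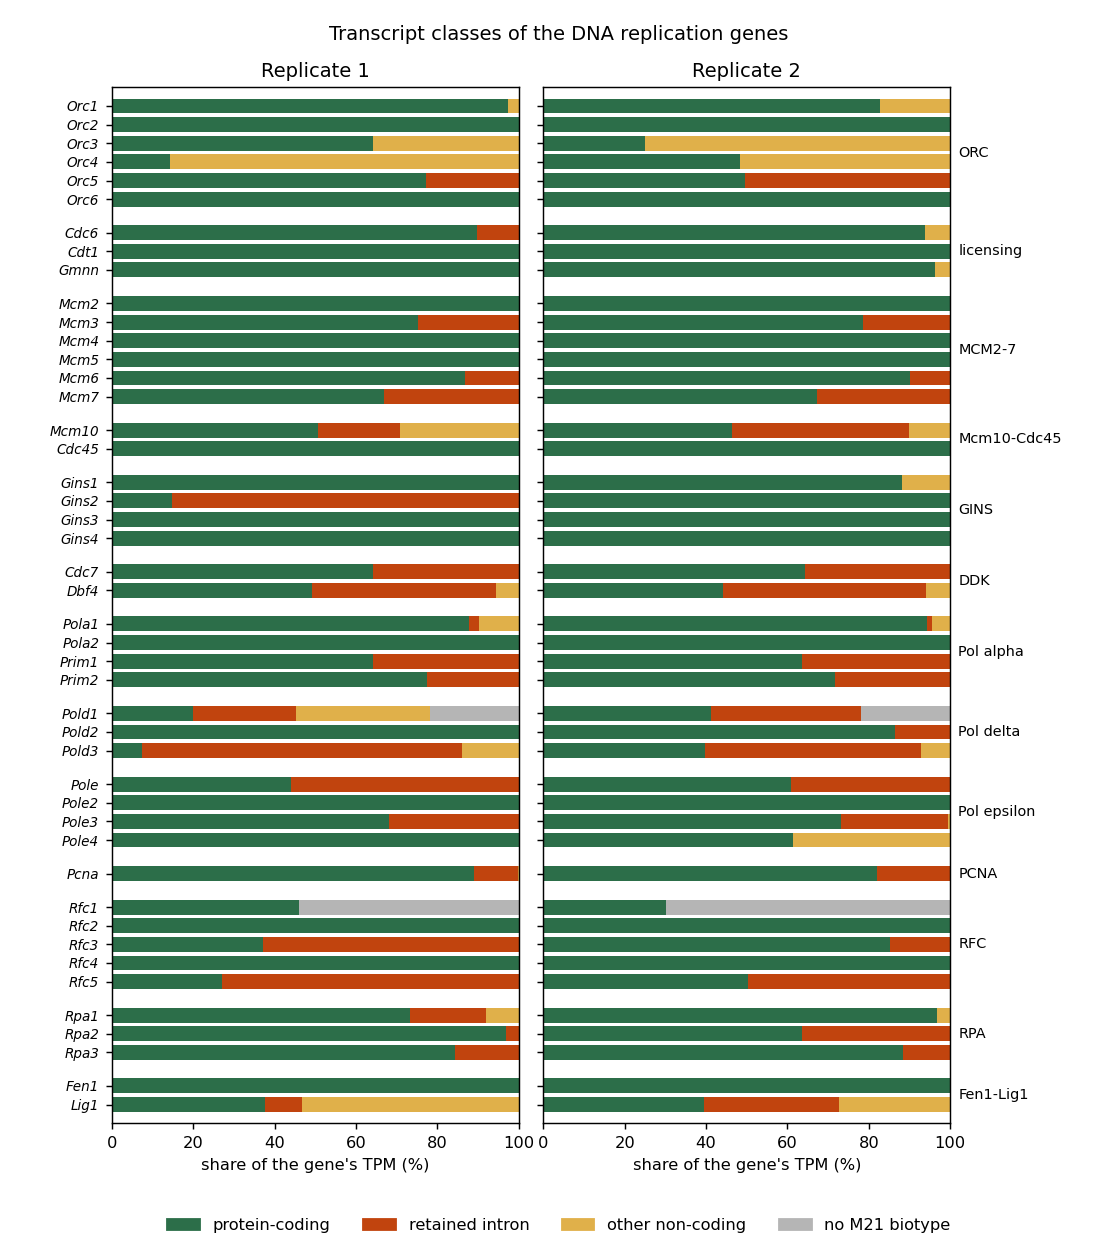
Share of each gene's TPM (percent, 0 to 100) in protein-coding, retained-intron and other non-coding transcripts and in transcripts with no biotype in GENCODE release 21, in replicate 1 (left) and replicate 2 (right). Dbf4 and Prim1 have like retained-intron shares in both libraries, while Gins2 and Pold3 are mostly non-coding in replicate 1 and less so in replicate 2.

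Some shares were alike in both libraries. Dbf4-205, a retained-intron transcript, held 17.1% and 17.8% of Dbf4. Prim1 had 35.8% and 36.4% of its TPM in retained-intron transcripts in sum, though its transcripts differed singly, with Prim1-202 at 21.8% and 9.86%. Others were present in 1 library only. Gins2-204, a retained-intron transcript of 511 bases, had 2.43 TPM from 114 counts in replicate 1 (credibility interval 1.93 to 2.91) and 0 counts in replicate 2. The protein-coding Gins2-201 had 0.42 and 0.93 TPM from 254 and 524 counts, so the gene's TPM was higher in replicate 1 while its coding TPM was higher in replicate 2. The protein-coding forms also alternated. Pold2-205 held 89.1% of Pold2 in replicate 1 and 0 in replicate 2, where Pold2-201 held 86.3%. Rfc4-201 held 100% of Rfc4 in replicate 1 and 36.7% in replicate 2, where Rfc4-203 held 60.5%. Cdc7-204 held 39.2% of Cdc7 in replicate 1 and 0 in replicate 2, where Cdc7-201 held 45.8%. Pold1-208, annotated for nonsense-mediated decay, held 32.8% of Pold1 in replicate 1 and 0 in replicate 2. Among detected genes of more than 1 transcript, 23 of 36 had a transcript whose share differed by more than 15 points between the libraries, beside 64.3% of such nuclear protein-coding genes. For the transcript that led in either library this was 19 of 36, beside 55.1%. Both counts were near the background.

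The libraries were also compared gene by gene on expected counts scaled by TMM (trimmed mean of M values, an edgeR scaling that sets most genes equal), with 1 library a side and so no test. At a 2-fold threshold 0 of 45 genes were higher in replicate 1, beside 10.7% of the 10403 genes that averaged 50 counts or more, and 3 were higher in replicate 2, beside 10.4%. The 3 were Cdc7 (1159 and 1665 counts, 2.33-fold), Gins2 (373 and 524 counts, 2.28-fold) and Rpa3 (379 and 487 counts, 2.09-fold). The log2 ratio of replicate 1 to replicate 2 had a median of -0.14 over the 45 genes and 0.03 over all 10403, and ran from -1.22 (Cdc7) to 0.94 (Cdt1). It was above 0 in 16 genes and below 0 in 29. By deposited TPM the same median was 0.50, with 0.66 over all genes, so the sign for the replication genes depended on the scale, while they lay below the median of all genes on both. By TPM 5 genes were at least 2-fold higher in replicate 1 (Orc4, Cdt1, Gins2, Pold3 and Rfc5, beside 31.0% of genes) and 0 in replicate 2 (beside 5.25%). Of these 5, Cdt1 has 1 transcript, and the other 4 had an effective length more than 1.5-fold longer in replicate 2, for example 799 and 3718 bases for Gins2. The recorded library size range also differed, 209 to 891 bases in replicate 1 and 186 to 747 in replicate 2. The part of this difference in the levels and ratios was not tested.

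**Figure D4:**
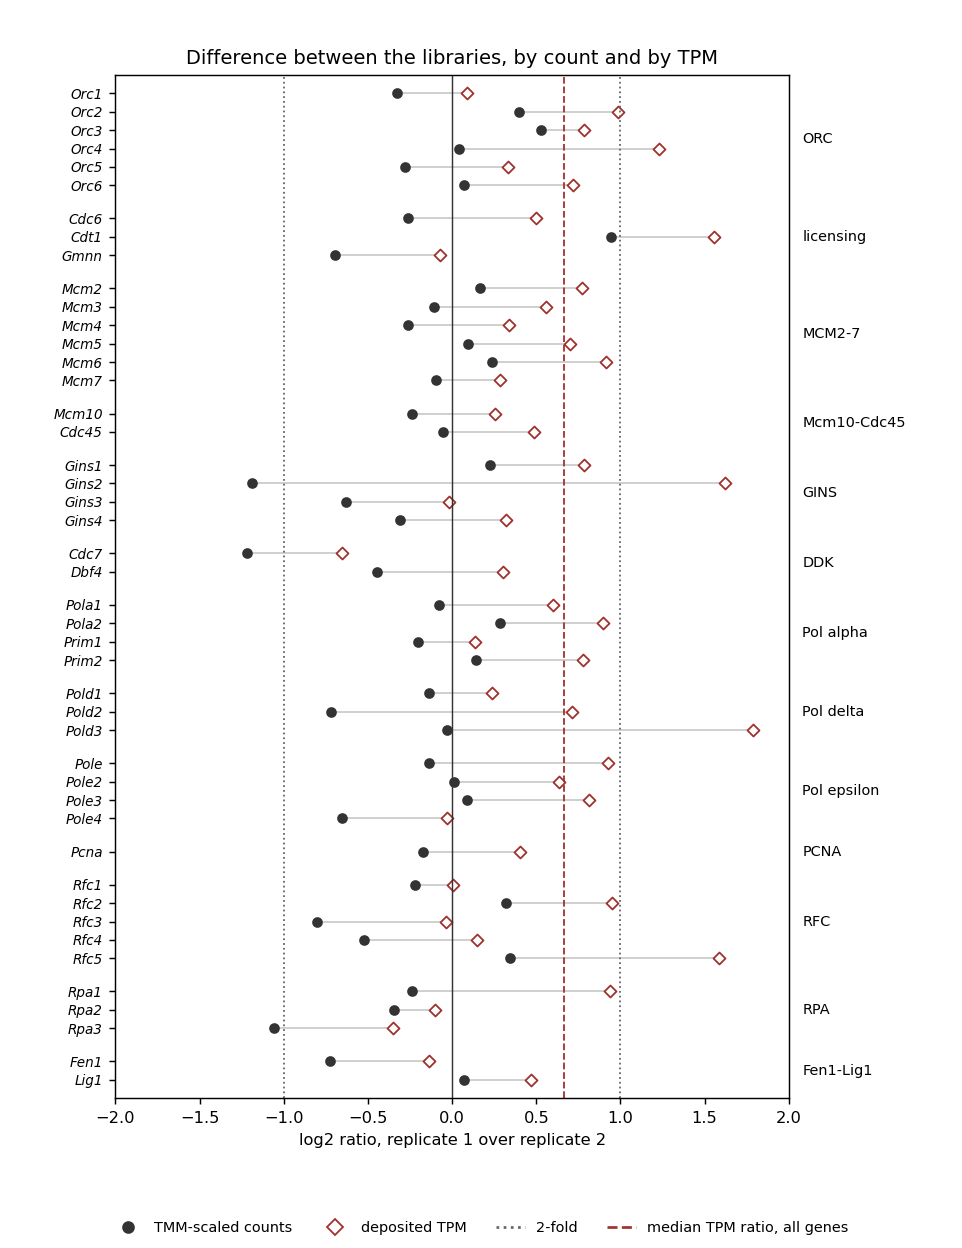
Log2 ratio of replicate 1 over replicate 2 for each gene, by TMM-scaled counts (filled circles) and by deposited TPM (open diamonds). Dotted lines mark 2-fold and the dashed line the median TPM ratio of all genes averaging 50 counts or more (0.66). Gins2 lies at -1.19 by counts and beyond 1 by TPM, and Pold3 has the highest TPM ratio (1.79).

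Other genes of the pathway were mostly detected too. Of 12 further regulators of licensing and firing, 11 reached 1 TPM in both libraries, beside 23.9% of nuclear protein-coding genes. Their median was 7.35 and 4.15 TPM. The highest by mean TPM of both libraries were Cul4a, the scaffold of a ubiquitin ligase that acts on Cdt1 (44.24 and 20.51 TPM), Topbp1, which helps to recruit Cdc45 and GINS (17.15 and 11.00), Rif1, a regulator of replication timing (10.67 and 10.42), and Donson, a helicase assembly factor (9.91 and 11.01). By coding TPM Cul4a was at 13.68 and 8.19, close to Topbp1 at 12.95 and 9.02. Recql4, at 0.96 and 0.81 TPM, was the 1 gene under 1 TPM. None of the 12 differed 2-fold between the libraries by scaled counts, beside 10.7% of genes higher in replicate 1 and 10.4% in replicate 2. Of 23 other fork genes 20 reached 1 TPM in both, beside the same 23.9%, with a median of 7.53 and 4.68 TPM. By mean TPM the checkpoint mediator Clspn was the highest at 41.08 and 27.81 TPM, followed by the subunits of the histone chaperone FACT, Ssrp1 (31.41 and 17.36) and Supt16 (20.98 and 17.36), and by the topoisomerase Top1 (22.89 and 14.43). Clspn did not lead by coding TPM, at 20.34 and 14.43 beside 20.98 and 17.36 for Supt16 and 26.82 and 12.02 for Ssrp1. Pold4, the smallest subunit of polymerase delta, was at 1.74 and 0.38 TPM, Primpol at 2.83 and 0.45 and Mcm8 at 0.33 and 0.66. At 2-fold by scaled counts, Pold4 (195 and 42 counts) and Primpol (914 and 249) were higher in replicate 1. Chaf1b (706 and 996 counts) and Mcm8 (28 and 212) were higher in replicate 2. With 2 of 23 genes each way, beside 10.7% and 10.4% of genes, this was near the background.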

How the data were processed

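The authors deposited, for each of the 2 libraries, a gene and a transcript table of expected counts (estimates in which a read that matches more than 1 gene is divided) and TPM, per the file headers, with bounds of a credibility interval whose level is not stated. The build is mm10 with GENCODE release 4, per the notes deposited with the tables. The sources used here do not name the aligner, the quantifier or the use of strand. TPM divides by effective length, so a short transcript gets a high TPM from few reads. Symbols, biotypes and coordinates came from GENCODE release 21 of the same assembly.

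Depth was 62576357 and 36889517 expected counts over Ensembl rows. Counts were rounded for TMM (edgeR 4.0.16) and DESeq2 1.42.0 size factors in R 4.3.3. Other steps used Python 3.11.15, pandas 2.3.3, scipy 1.17.1, Biopython 1.88 and matplotlib 3.10.9. Log2 ratios used scaled counts with a prior count of 0.5 and genes that averaged 50 counts or more. With 1 group no test between groups was made and no p-value is given; counts of genes stand beside the same share of all genes tested. Scripts were tested on simulated data.

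The genes and lists were chosen with earlier results of these data known. All 45 genes are named, with the highest and lowest genes of each further list and those past 2-fold between the libraries. Alternatives were other TPM minimums, posterior mean TPM, TPM rescaled to nuclear protein-coding genes, CPM, other scalings, filters and prior counts, another transcript share and leaving out each library; coding TPM was added after seeing the data. Of the marker genes chosen, 1 is not reported here.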

Additional observations from a re-analysis of the deposited data

How the results depend on the processing

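The genes that reached 1 TPM in both numbered 44, and 26 at a minimum of 5 TPM (44 to 45 with 1 library left out). The median level was 6.53 TPM, 39.1 as CPM, 67.1 as TPM rescaled to nuclear protein-coding genes and 4.71 as coding TPM (5.50 to 7.55 with 1 library left out). The log2 ratio of the MCM2-7 to the ORC median was 1.97 by CPM and 1.88 by coding TPM (1.41 to 1.59 with 1 library left out). The log2 ratio of Cdt1 to Gmnn was -2.75, and -1.34 by CPM (-3.56 to -1.93 with 1 library left out). The highest to lowest MCM2-7 log2 ratio was 2.06, 1.17 by CPM and 1.51 by coding TPM (1.98 to 2.13 with 1 library left out). The median percentile was 91.2, 89.9 by CPM and 83.1 among genes that averaged 10 counts or more (90.6 to 91.7 with 1 library left out). By the ratio of deposited TPM, genes past 2-fold numbered 5 (not 0) in replicate 1 and 0 (not 3) in replicate 2, and the median log2 ratio reversed from -0.14 to 0.50. Genes whose leading transcript held under 60% in both libraries numbered 14, and 9 by share of counts (15 to 17 with 1 library left out). CPM is not per length and rescaled TPM has another total by construction; for the other changes the cause was not tested. The other 42 values stayed within the SD of the libraries where there was an SD, or within 1.5 times for counts of genes. The median log2 ratio between the libraries, which has no SD, stayed at -0.14 to -0.15. Many of these values could hardly move. Leaving out 1 of 2 libraries returns the other's level or ratio, within the SD by construction. The lowest count was 228, so lower count filters dropped none of the 45 genes. By posterior mean TPM the MCM2-7 to ORC log2 ratio, 1.39, lay below both libraries' values. No paired analysis was possible because there is 1 group. Depth limits the genes of lowest count, such as Pold2, and the split of their reads between transcripts.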
